A study of Mus musculus with 4 samples.

Results

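The report concerns the Janus kinases (JAKs) and the signal transducers and activators of transcription (STATs) of mouse regulatory T (Treg) cells from which the lineage factor Foxp3 had been removed. The members were all probe sets whose gene symbol in the array platform's annotation was 1 of a list that was itself drawn up with earlier results of these data known: Jak1, Jak2, Jak3, Tyk2, Stat2, Stat3, Stat4, Stat5a and Stat5b, which are 9 of 18193 annotated genes. They were represented by 19 probe sets, of which 14 were bright enough to test. Foxp3-deleted cells (2 arrays) carried a loxP-flanked Foxp3 gene and Foxp3 wild-type cells (2 arrays) a wild-type Foxp3 gene. Both groups had been exposed to Cre recombinase through the construct HR-MMPCreGFP, a Cre-sensitive YFP recorded that exposure, and both were CD4+ YFP+ Ly5.2+ T cells taken 6 weeks after adoptive transfer. Whether the 2 samples of a group came from separate animals is not stated in the labels, so the p-values cover no more than the spread among these samples, and that spread may be technical.

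A cytokine that binds its receptor brings together JAKs, tyrosine kinases held on the receptor tails. The JAKs phosphorylate the receptor and then a STAT, which pairs through its SH2 domain, enters the nucleus and binds DNA. Treg cells depend on interleukin-2, whose receptor signals through Jak1 and Jak3 to Stat5a and Stat5b, and STAT5 binds the Foxp3 gene itself. Helper T cells read interleukin-12 through Jak2, Tyk2 and Stat4, interleukin-6 and its relatives mainly through Jak1 and Stat3, and type I interferon through Jak1, Tyk2 and Stat2.

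Foxp3 served as the check of the labels. Its probe set read 437.8 and 429.8 in the deleted arrays, against 2694 and 2404 in the wild-type arrays (GCRMA intensity, a background-corrected and normalised brightness on a linear scale). The difference was -2.55 on the log2 scale (SE 0.26, adjusted p = 0.115 in limma). Markers of T cells (Cd3d, Cd3e, Cd3g, Cd4, Cd5 and Thy1) had a mean log2 intensity of at least 4 in 6 of 6 cases, while Cd8a and Cd8b1 did not, nor did 3 of 3 dendritic cell markers (Itgax, Flt3 and Zbtb46). The summed intensity of the T cell markers was 21364 and 23675 in the deleted arrays, against 16297 and 14103 in the wild-type arrays, so that it too separated the groups. Singly, Cd4, Thy1 and Cd3d separated them, with log2 differences of 1.56, 0.95 and 0.46. The groups overlapped for Cd3e (0.49), Cd3g (0.20) and Cd5 (-0.17), and the brightest of the markers was Thy1. The summed intensity of 5 myeloid markers was 1768 and 582.4 in the deleted arrays and 603.7 and 484.9 in the wild-type arrays, and the groups overlapped. Nearly all of it came from Csf1r, which read 923.5 and 486.8 in the deleted arrays and 533.2 and 314.2 in the wild-type arrays, and from Lyz2, at 828.0 and 79.0 in the deleted arrays and 50.1 and 151.5 in the wild-type arrays, while Cd14, Itgam and Fcgr1 were near the floor. Of 3 B cell markers measured Cd79b was above 4, and their sum was 34.2 and 48.0 in the deleted arrays, against 118.5 and 108.9 in the wild-type arrays. Of 2 gamma delta T cell markers measured Cd163l1 had a mean above 4, and their sum was 77.9 and 107.4 in the deleted arrays, against 19.4 and 21.9 in the wild-type arrays. Cd163l1 read 6.15 and 6.65 in the deleted arrays, against 3.66 and 3.93 in the wild-type arrays (log2). It thus passed the filter through the deleted arrays alone, and the other marker, Sox13, was near the floor in all 4 arrays. The part of these markers in the results on JAKs and STATs was not tested. In such bulk samples fewer cells of a type and less RNA per cell cannot be told apart.

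The control probe sets along the transcripts of Actb (beta-actin) and Gapdh, a glycolytic enzyme, differed between the groups toward the 5′ end. The Actb signal at the 3′ end exceeded that at the 5′ end by 4.91 and 4.47 on the log2 scale in the deleted arrays, against 7.26 and 6.60 in the wild-type arrays. For Gapdh this gap was 5.89 and 4.17 in the deleted arrays, against 7.24 and 7.08 in the wild-type arrays. Both deleted arrays thus had the smaller gap for both transcripts. The deleted minus wild-type difference was 0.30 at the 3′ end of Actb, 1.36 in its middle and 2.54 at its 5′ end, and for Gapdh it was 0.02, 0.81 and 2.15 on the log2 scale. A difference in the coverage of transcripts toward their 5′ ends therefore ran with the groups, and for a single probe set it cannot be told apart from a difference in the amount of transcript. The positions of the JAK and STAT probe sets are not given in the annotation used here.

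Among the JAK and STAT genes, the probe sets of Jak1 and Stat4 read higher in both deleted arrays than in both wild-type arrays. So did Stat3 on 1460700_at, while the groups overlapped on its other tested probe sets. The tested probe sets of Tyk2, Stat5a and Stat5b read lower in both deleted arrays. Of 14 tested probe sets 11 had a higher mean with Foxp3 deleted (background 50.5% of all tested probe sets) and 3 a lower one (background 49.5%), with a median log2 difference of 0.49, beside 0.0058 over all 16281 tested probe sets. The groups did not overlap for 5 higher probe sets, where the background was 18.9% of all tested probe sets, and for 3 lower ones, where it was 21.1%. With a difference of at least 1 as well, 3 were higher (background 6.67%) and 1 was lower (background 4.59%). With p adjusted over all tested probe sets in limma, 0 of 14 passed 0.05 (background 0%), and adjusted p lay between 0.291 and 0.898. At an unadjusted p under 0.05 in limma, 3 passed and all were higher, where 9.26% of all tested probe sets did so, 5.38% in that direction. They belonged to Jak1 and Stat4, and probe sets of the same gene are not independent. On the probe set of highest mean per gene, 1 of 9 genes passed (background 822 of 8629). By that count the groups did not overlap for 3 higher genes (background 17.7%) and 3 lower ones (background 22%).

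**Figure D1:**
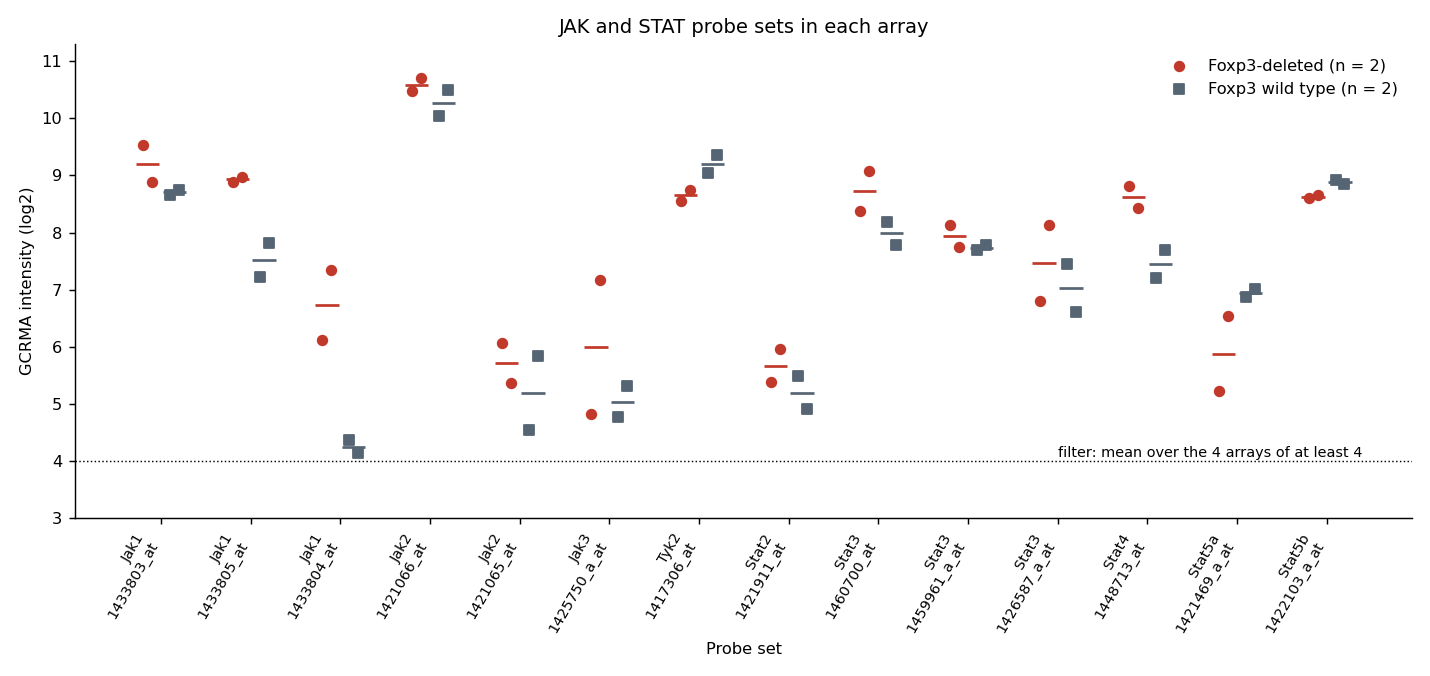
Log2 GCRMA intensity (vertical axis) of the 14 tested JAK and STAT probe sets (horizontal axis) in each array, with Foxp3-deleted cells as circles, wild-type cells as squares (n = 2 each) and group means as bars. The Jak1 probe set 1433804_at stood at 6.11 and 7.35 in the deleted arrays, against 4.37 and 4.14 in the wild-type arrays, while the 2 deleted arrays lay far apart for Jak3.

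Jak1, the kinase that common gamma chain, gp130 and interferon receptors share, was higher in both deleted arrays on each of its 3 probe sets. Probe set 1433804_at read 69.3 and 163.1 in the deleted arrays, against 20.7 and 17.6 in the wild-type arrays (intensity). The groups were separate, and the higher deleted array read more than the other deleted array by 1.24 on the log2 scale. The difference was 2.48 (SE 0.51, 95% interval 1.15 to 3.80, adjusted p = 0.291 in limma), or 5.56-fold. Leaving out an array moved it between 1.86 (without deleted replicate 2) and 3.09 (without deleted replicate 1). On probe set 1433805_at the intensities were 473.5 and 502.8 in the deleted arrays, against 150.2 and 226.7 in the wild-type arrays. Here the deleted arrays lay close together, and the difference was 1.40 (SE 0.37, 95% interval 0.45 to 2.36, adjusted p = 0.38 in limma). Probe set 1433803_at read 739.7 and 471.7 in the deleted arrays, against 402.9 and 430.5 in the wild-type arrays. The lower deleted array was only slightly above the wild-type arrays, and the difference of 0.50 (SE 0.36, 95% interval -0.43 to 1.44, adjusted p = 0.732 in limma) was 0.18 without deleted replicate 1.

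The 3 Jak1 probe sets therefore gave the same sign and sizes from 0.50 to 2.48, a span of 1.97 on the log2 scale. Among 795 genes with 3 tested probe sets the median span was 0.77, and 95.3% of these genes had a smaller span than Jak1. Along the control transcript Actb the difference likewise took values between 0.30 at the 3′ end and 2.54 at the 5′ end. Which of the Jak1 probe sets lies nearer the 3′ end is not given here, so that the amount of Jak1 transcript and its 5′ coverage cannot be told apart.

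**Figure D2:**
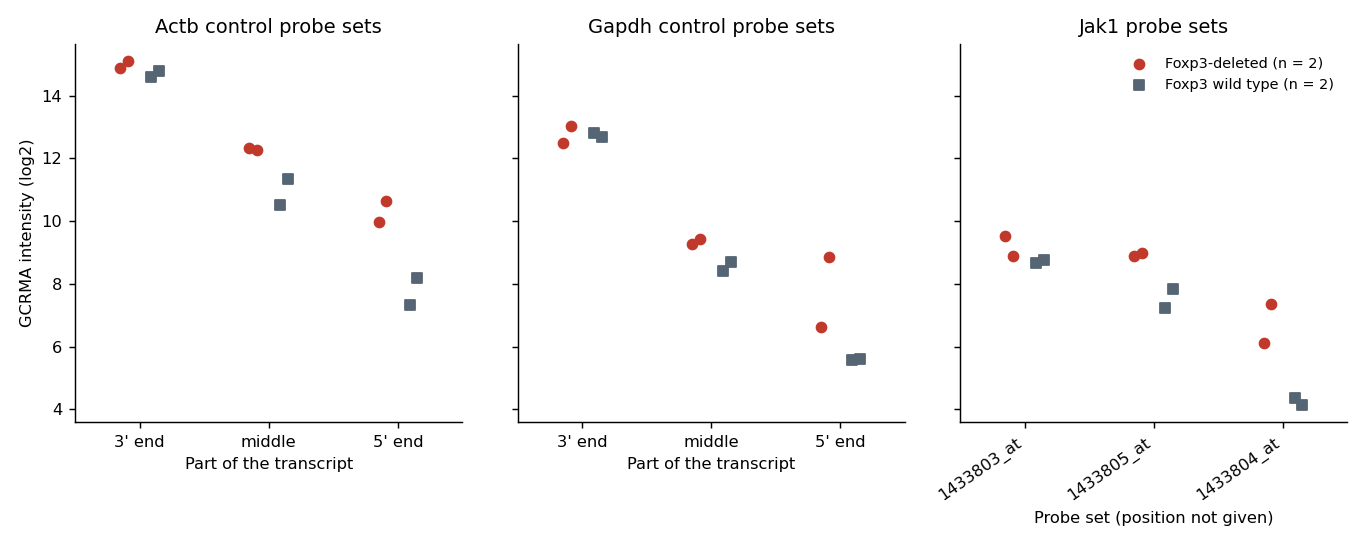
Log2 GCRMA intensity (vertical axis) in each array for control probe sets at the 3′ end, middle and 5′ end of Actb and Gapdh and for the 3 Jak1 probe sets (horizontal axis, no position known for Jak1), with Foxp3-deleted cells as circles and wild-type cells as squares (n = 2 each). The groups lay close together at the 3′ ends of the controls, where the differences were 0.30 and 0.02, and apart at the 5′ ends, where they were 2.54 and 2.15; the Jak1 differences were 0.50, 1.40 and 2.48.

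The promoters of Jak1 and Stat4 are shown because probe sets of these genes had the largest differences toward higher readings and because Foxp3 belongs to the forkhead factors, which bind a core of TGTTT or, in full, TGTTTAC. Each sequence is from RefSeq (GRCm38.p6) and runs from 250 bases before to 50 bases after a gene's start. Capitals mark the forkhead core on either strand. The Jak1 sequence is chr4:101265174-101265473 (minus strand), and those of Stat4 are chr1:51986898-51987197 for the upstream start and chr1:52007990-52008289 for the downstream start (both plus strand).
Jak1: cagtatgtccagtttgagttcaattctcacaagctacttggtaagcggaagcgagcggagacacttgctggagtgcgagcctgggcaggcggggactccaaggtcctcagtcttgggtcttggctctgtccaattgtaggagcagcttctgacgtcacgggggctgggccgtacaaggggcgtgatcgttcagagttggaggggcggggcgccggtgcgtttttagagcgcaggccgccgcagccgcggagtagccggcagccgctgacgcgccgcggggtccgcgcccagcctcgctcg
Stat4, upstream start: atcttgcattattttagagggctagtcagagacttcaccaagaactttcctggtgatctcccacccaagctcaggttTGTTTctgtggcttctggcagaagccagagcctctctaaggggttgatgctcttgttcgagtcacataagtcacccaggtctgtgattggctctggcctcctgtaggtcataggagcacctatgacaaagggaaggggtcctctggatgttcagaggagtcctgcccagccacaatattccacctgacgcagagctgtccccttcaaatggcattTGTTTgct
Stat4, downstream start: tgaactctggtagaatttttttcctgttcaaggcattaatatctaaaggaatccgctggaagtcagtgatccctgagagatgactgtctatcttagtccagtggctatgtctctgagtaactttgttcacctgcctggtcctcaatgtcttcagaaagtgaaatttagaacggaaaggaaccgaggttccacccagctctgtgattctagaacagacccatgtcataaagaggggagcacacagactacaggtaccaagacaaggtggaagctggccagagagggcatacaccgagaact
The core was found 2 times in the upstream Stat4 sequence and 0 times in the other Stat4 sequence and in that of Jak1. All 9 members matched the RefSeq promoter table, with 12 sequences in all, and 6 of 12 held the core, as did 50.5% of all 32851 promoters of this length. The full motif TGTTTAC was in 0 of 12, against 3.65% of all promoters, and the STAT motif TTCNNNGAA, which reads the same on both strands, was in 0 of 12, against 8.3%. A match is a description of the letters and not a binding site.

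Jak2, the kinase of the interleukin-12 and interferon-gamma receptors among others, had a higher mean in deleted cells with overlapping groups. Its brighter probe set, 1421066_at, read 1424 and 1670 in the deleted arrays, against 1054 and 1438 in the wild-type arrays. The lower deleted array was below the higher wild-type array, and the difference was 0.32 (SE 0.29, 95% interval -0.42 to 1.07, adjusted p = 0.776 in limma). The other probe set, 1421065_at, read 67.5 and 41.3 in the deleted arrays, against 23.4 and 57.5 in the wild-type arrays. Its difference of 0.52 (SE 0.57, adjusted p = 0.816 in limma) became -0.12 without wild-type replicate 1.

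Jak3 is the kinase bound to the common gamma chain and needed for interleukin-2 and interleukin-7 signals. It was measured by 1 probe set that carried its symbol alone. Over all 9 members, 2 further probe sets assigned to several genes, a member among them, were left out. Jak3 read 28.2 and 143.4 in the deleted arrays, against 27.3 and 39.9 in the wild-type arrays. Only deleted replicate 2 stood above the wild-type arrays. The gap of 2.34 on the log2 scale between the deleted arrays was wider than that of 99.4% of all tested probe sets. The difference of 0.95 (SE 0.83, 95% interval -1.19 to 3.08, adjusted p = 0.77 in limma) became -0.22 without deleted replicate 2 and 2.12 without deleted replicate 1. Deleted replicate 2 also had the smallest gap between the ends of Gapdh (4.17), and the part of this in the Jak3 reading was not tested.

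Tyk2, the partner kinase at the interleukin-12 and type I interferon receptors, was the JAK with a lower reading. Probe set 1417306_at read 376.2 and 429.7 in the deleted arrays, against 526.5 and 656.9 in the wild-type arrays. Both deleted arrays were below both wild-type arrays. The difference was -0.55 (SE 0.32, 95% interval -1.37 to 0.28, adjusted p = 0.685 in limma), and it lay between -0.71 and -0.39 when an array was left out. The second Tyk2 probe set, 1432576_at, lay near the floor in every array, with log2 intensities between 3.20 and 3.27, and was not tested.

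Among the STATs, Stat4, which transmits interleukin-12 signals and promotes the Th1 program, had the largest difference toward higher readings. Its single probe set, 1448713_at, read 448.5 and 344.8 in the deleted arrays, against 147.7 and 208.3 in the wild-type arrays. The lowest deleted array was well above the highest wild-type array. The difference was 1.17 (SE 0.38, 95% interval 0.19 to 2.14, adjusted p = 0.461 in limma), or 2.24-fold, and it lay between 0.92 and 1.41 when an array was left out. Of all tested probe sets 90.8% had a smaller absolute difference. The natural killer cell markers measured here (Klra8 and Ncr1) summed to 194.8 and 50.5 in the deleted arrays and 93.8 and 55.7 in the wild-type arrays, with overlapping groups, and Ncr1 was near the floor in all 4 arrays. The cells had been isolated by CD4, YFP and Ly5.2, and the part of these markers in the Stat4 reading was not tested.

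The genes whose centred log2 values over the 4 arrays lay nearest to those of Stat4, among 8628 others with a tested probe set, were Psmg4, Ybx1 and Armc7. Psmg4, a proteasome assembly chaperone, was at a Euclidean distance of 0.05 and differed by 1.17 between the groups. Ybx1, a Y-box RNA- and DNA-binding protein, was at 0.07 and differed by 1.18, and Armc7, an armadillo repeat protein, was at 0.13 and differed by 1.21 on the log2 scale. With 4 arrays, many genes of one size of difference have such a profile, and the distances are given as a description.

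Stat3, the main STAT of interleukin-6, interleukin-10 and interleukin-21 signals and a factor of the Th17 program, had a higher mean on 3 tested probe sets. Probe set 1460700_at read 331.3 and 538.0 in the deleted arrays, against 290.0 and 221.2 in the wild-type arrays. Both deleted arrays were above both wild-type arrays, and the difference was 0.74 (SE 0.40, 95% interval -0.30 to 1.78, adjusted p = 0.671 in limma). Without deleted replicate 2 it came to 0.39, and with deleted replicate 1 left out instead it came to 1.09. Probe set 1459961_a_at read 281.9 and 214.1 in the deleted arrays, against 206.5 and 220.8 in the wild-type arrays. Here the groups overlapped, and the difference was 0.20 (SE 0.35, adjusted p = 0.898 in limma). Probe set 1426587_a_at read 111.5 and 279.4 in the deleted arrays, against 173.9 and 97.9 in the wild-type arrays. The wild-type arrays lay between or below the widely spaced deleted arrays, and the difference of 0.44 (SE 0.60, adjusted p = 0.857 in limma) became -0.23 without deleted replicate 2. The 3 probe sets spanned 0.53 on the log2 scale. The remaining probe set of Stat3, 1424272_at, lay between 2.36 and 2.43 and was not tested.

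Stat2, which joins Irf9 in the complex that type I interferon sends to the nucleus, did not separate the groups. Probe set 1421911_at read 41.9 and 62.2 in the deleted arrays, against 44.9 and 30.1 in the wild-type arrays. One wild-type array lay between the deleted arrays, and the difference was 0.47 (SE 0.41, 95% interval -0.59 to 1.54, adjusted p = 0.769 in limma). The other Stat2 probe set, 1450403_at, lay between log2 intensities of 2.64 and 2.69 and was not tested.

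Stat5a and Stat5b, the closely related STATs that carry the interleukin-2 signal, were both lower in deleted cells. Stat5a read 37.4 and 93.2 on probe set 1421469_a_at in the deleted arrays, against 117.5 and 128.9 in the wild-type arrays. Both deleted arrays were below the wild-type arrays but lay 1.32 apart on the log2 scale, a gap wider than that of 92.7% of tested probe sets. The difference was -1.06 (SE 0.54, 95% interval -2.45 to 0.33, adjusted p = 0.645 in limma), and leaving out a deleted array gave -0.40 (without deleted replicate 1) or -1.72 (without deleted replicate 2). Stat5b read 389.6 and 403.6 on probe set 1422103_a_at in the deleted arrays, against 482.4 and 462.8 in the wild-type arrays. These arrays agreed closely within each group, and the difference was small, at -0.25 (SE 0.30, 95% interval -1.04 to 0.53, adjusted p = 0.837 in limma), with a range from -0.28 to -0.22 when an array was left out. The second probe set of Stat5a, 1450259_a_at, lay between 2.35 and 2.46. That of Stat5b, 1422102_a_at, read 3.68 and 3.64 in the deleted arrays, against 4.62 and 3.68 in the wild-type arrays (log2), and neither was tested.

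**Figure D3:**
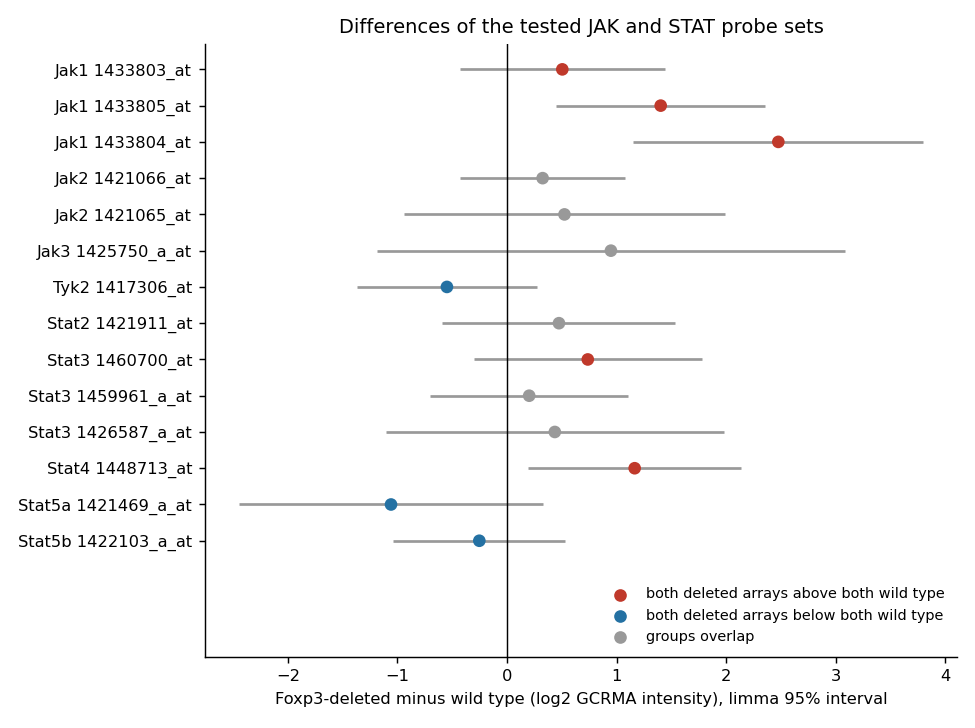
Foxp3-deleted minus wild-type difference in log2 GCRMA intensity (horizontal axis) for the 14 tested probe sets (vertical axis), with points for the difference of the means of 2 arrays each and lines for the 95% limma interval. The interval lay above 0 for 2 Jak1 probe sets and for Stat4 before adjustment over all probe sets, and included 0 for the other 11.

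In RefSeq (GRCm38.p6) Stat5b, Stat5a and Stat3 are direct neighbours on mouse chromosome 11. The 3 neighbours did not share a direction, since Stat3 read higher on its brightest probe set and both Stat5 genes read lower. The promoter sequences of the Stat5 pair are shown where they are most alike, because both genes read lower and are closely related. Capitals mark the longest run of letters common to any promoter of Stat5a and any of Stat5b, 16 bases, with 30 bases on each side. The Stat5a stretch is chr11:100860422-100860497 (plus strand) and the Stat5b stretch is chr11:100822548-100822623 (minus strand).
Stat5a: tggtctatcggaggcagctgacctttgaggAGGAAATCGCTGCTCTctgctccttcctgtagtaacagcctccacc
Stat5b: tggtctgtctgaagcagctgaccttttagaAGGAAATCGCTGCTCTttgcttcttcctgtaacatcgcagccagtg
The shared run lies upstream of the start of the promoter sequence that holds it in both genes. Each gene also has an annotated start further upstream, and the run lies downstream of that start. Those promoter sequences are chr11:100859406-100859705 for Stat5a and chr11:100850532-100850831 for Stat5b. Whether probes of either gene also bind the transcript of the other was not tested.

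Further genes of the pathway were counted from lists that were chosen with earlier results of these data known, with each gene on its probe set of highest mean, and 0 of them passed an adjusted p of 0.05 in limma. In the same count, 6 of the 9 JAK and STAT genes had a higher and 3 a lower mean, with a median difference of 0.47, beside -0.02 over all 8629 genes tested. Of 5 tested common gamma chain receptor genes 1 was higher and 4 were lower (median -0.21). The largest differences among them belonged to Il2ra, which encodes the interleukin-2 receptor alpha chain (-4.33, SE 0.63, adjusted p = 0.166), Il2rb, its beta chain (-0.91, SE 0.53, adjusted p = 0.685), and Il7r, which encodes the receptor chain for interleukin-7 (0.48, SE 0.34, adjusted p = 0.732, all in limma). The other tested probe set differed by -2.48 for Il2ra and by 1.82 for Il7r. Il2rb, which carries the docking sites for STAT5, read 6.01 and 7.28 in the deleted arrays, against 7.67 and 7.44 in the wild-type arrays (log2).

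Of 6 tested receptor genes of the gp130, interleukin-12 and interleukin-10 families 2 were higher and 4 were lower (median -0.27). Il10ra, the chain of the interleukin-10 receptor that recruits Stat3, read 4.84 and 3.83 in the deleted arrays, against 6.80 and 6.38 in the wild-type arrays (log2). Both deleted arrays were far below the wild-type arrays, and the difference was -2.26 (SE 0.47, adjusted p = 0.296 in limma). Il6ra, the interleukin-6 receptor, differed by 0.76 (SE 0.68, adjusted p = 0.772 in limma), and Il10rb, the second interleukin-10 receptor chain, by -0.45 (SE 0.45, adjusted p = 0.802 in limma), with 0.38 on its other tested probe set. The 4 tested interferon receptor genes and partners stayed within 0.30 of 0, with 2 higher and 2 lower means. Their largest differences were -0.30 for Ifnar1, a type I interferon receptor chain (0.03 on its other tested probe set), 0.19 for Ifngr1, an interferon-gamma receptor chain, and 0.03 for Irf9, the partner of Stat2.

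Of 17 tested inhibitors of the pathway 8 had a higher and 9 a lower mean (median -0.01), and the groups did not overlap for 5 higher ones (background 17.7% of all genes tested) and 5 lower ones (background 22%). The 3 with the largest differences all belong to the SOCS family, which binds JAKs or receptors, and all were lower. The family did not share a direction. Socs7 was higher by 0.85 (0.20 on its other tested probe set). Socs3 was lower (-0.40), but its 3 tested probe sets ran from -0.51 to 0.18. Socs4 was higher by 0.39 with overlapping groups, and its 3 tested probe sets ran from -0.47 to 0.49. Ptpn11, the next in size, was higher by 1.07 with separate groups. Socs5 read 6.79 and 6.08 in the deleted arrays, against 7.51 and 8.11 in the wild-type arrays (log2), a difference of -1.37 (SE 0.45, adjusted p = 0.462 in limma). Cish, a STAT5 target that restrains interleukin-2 signals, read 10.27 and 10.01 in the deleted arrays, against 11.54 and 11.07 in the wild-type arrays (log2), a difference of -1.17 (SE 0.29, adjusted p = 0.353 in limma). Socs2, likewise a STAT5 target, differed by -1.59 (SE 0.44, adjusted p = 0.406 in limma).

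Of 15 tested target genes of STATs in T cells 7 had a higher and 8 a lower mean (median -0.31). Their median absolute difference was 1.12, beside 0.35 over all genes tested. The list was chosen with earlier results of these data known. Its values beside those of all genes therefore cannot show whether targets of STATs changed more than other genes. Non-overlapping groups were found for 6 higher targets (background 17.7%) and 7 lower ones (background 22%). The largest differences were those of Ifng, the Th1 cytokine (2.48, SE 0.34, adjusted p = 0.164), Il21, a cytokine gene downstream of Stat3 (2.16, SE 0.31, adjusted p = 0.164), and Tbx21, the gene of the Th1 regulator T-bet (1.77, SE 0.38, adjusted p = 0.299, all in limma). Il21 read 5.98 and 6.02 in the deleted arrays, against 3.79 and 3.88 in the wild-type arrays (log2), so it passed the filter through the deleted arrays alone and the size of its difference depends on the floor. Socs2 and Cish are on this list as well. Stat6, the STAT of interleukin-4, differed by 0.04 on its brighter probe set and -0.28 on the other, with overlapping groups on both.

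**Figure D4:**
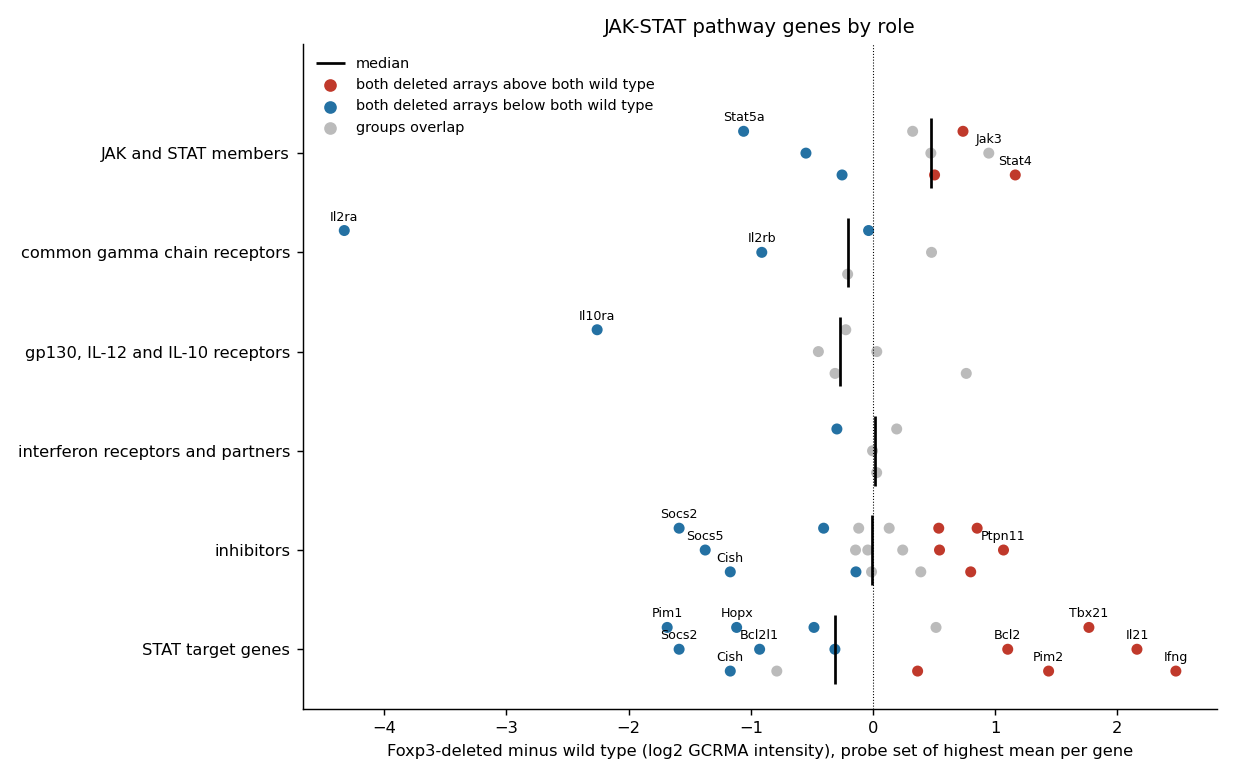
Foxp3-deleted minus wild-type difference in log2 GCRMA intensity (horizontal axis) of the tested genes of each role (vertical axis), 1 point per gene on its probe set of highest mean, with black bars for the medians and n = 2 arrays per group. On these probe sets the JAK and STAT members lay between -1.06 and 1.17, the STAT target genes reached 2.48 and Il2ra stood at -4.33. Jak1 is shown at 0.50, while its dimmer probe sets, not drawn, differed by 1.40 and 2.48.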

How the data were processed

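RNA of 4 samples was hybridised to 1 single-colour array each, after extraction with Qiagen RNeasy and biotin labelling with the Ambion Message Amp II kit, per the labels. The deposited values are intensities on a linear scale that the authors made in GCRMA (version 1.1.3), according to the submitters' processing notes; that step compresses differences of dim probe sets. The log2 of each value was taken with no pseudocount, so a difference of 1 is 2-fold. Of 45101 probe sets, 64 controls were left out, and the 16281 that averaged at least 4 (log2) over the 4 arrays were tested, with a symbol or without. limma 3.58.1 in R 4.3.3 (lmFit, eBayes with an intensity trend, 2 residual and 2.98 prior degrees of freedom) gave two-sided p-values, adjusted over all tested probe sets by Benjamini-Hochberg (threshold 0.05), and was tested on simulated data. In that simulation 0% of changes of 1 on the log2 scale were called, 0.6% of 2, 5.4% of 3 and 15% of 4. The number of arrays limits the precision. The 14 tested member probe sets and Foxp3 are named, with the 3 largest differences of each pathway list and the 3 genes of profile nearest to the member gene of largest difference on its brightest probe set. Further inhibitors are named for their direction. Members and lists were chosen with earlier results of these data known. Platform annotation gave 34958 probe sets 1 symbol, 932 several and 9211 none. Same-numbered arrays did not deviate together (r = -0.243 over tested probe sets). Plots were drawn with matplotlib 3.10.9 in Python 3.11.15.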

Additional observations from a re-analysis of the deposited data

How the results depend on the processing

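Of 14 tested JAK and STAT probe sets, 0 passed an adjusted p of 0.05 with all 4 arrays. Under each of 13 alternatives 0 of those counted passed, which were 10 with the filter at 6, 9 with 1 probe set per gene and 14 otherwise (no filter, a filter at 6, a floor at 4, quantile normalization, median centring, no trend, 1 probe set per gene, the replicate block, its crossed form and each array left out). With no filter the 5 dim member probe sets were fitted too but not counted, and 0 of all 45037 probe sets passed. Over all probe sets 0 passed, except that 20 passed with the filter at 6, where 10024 were tested. With limma, 1507 had an unadjusted p under 0.05. The direction of 3 probe sets turned when an array was left out, over which Jak3 ranged from -0.22 to 2.12 and Stat3 on 1426587_a_at from -0.23 to 1.099 (both lowest without deleted replicate 2), and Jak2 on 1421065_at from -0.12 (without wild-type replicate 1) to 1.17. The causes were not tested. With the replicate number as a block, 0 probe sets passed, and 0 passed with the crossed pairing, added after seeing the data because the deviations of same-numbered arrays correlated negatively. With 2 arrays per group, intervals were wide, and a missed threshold does not show equal levels.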
